A study of Homo sapiens with 6 samples.

Results

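The genes described here are 9 of the 28395 listed for HCC827 cells, taken as the rows named CYP1A1, CYP1A2, CYP1B1, AHR, AHRR, ARNT, ARNT2, TIPARP and NQO1. They are the aryl hydrocarbon receptor, its DNA-binding partners, its repressors, and genes known as its targets. HCC827 is an established line from a human lung adenocarcinoma with an activating EGFR mutation, and erlotinib inhibits the EGFR kinase. RNA-seq of polyadenylated RNA was performed on 3 libraries of HCC827 cells given DMSO and 3 libraries of HCC827 cells given 1 μM erlotinib, both for 24 h. The line stands for 1 tumor, and the labels do not say whether the libraries came from separate cultures, so p-values measure the spread between these libraries, which may be technical. The libraries held 20858083, 24641819 and 21172884 reads on genes with DMSO (libraries 1 to 3) and 21944007, 20760204 and 21678395 with erlotinib (libraries 4 to 6). Values are given as signal, the reads of a gene divided by 1 size factor per library, and they can be compared between libraries but not between genes. Replicates differed by more than sampling noise, the chi-square of their reads per degree of freedom lying at 4.15 to 23.5.

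AHR is a transcription factor of the bHLH-PAS family that waits in the cytoplasm, bound by HSP90 and its cochaperones, until a ligand such as a polycyclic aromatic hydrocarbon binds it. It then enters the nucleus, pairs with ARNT and binds xenobiotic response elements, whose core is the sequence GCGTG. The CYP1 enzymes it induces oxidize its ligands, while AHRR and TIPARP, also induced, repress it, and in the lung CYP1A1 and CYP1B1 are best known as the genes that tobacco smoke turns on.

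The promoters of CYP1A1 and AHRR are shown because these genes had the largest log2 fold changes of the 9 at a pseudocount of 1 with all libraries. Without DMSO library 3, CYP1A2 (4.532) was above AHRR (4.403) and below CYP1A1 (4.605) at that pseudocount. CYP1A2, at 0 to 2 reads per library with DMSO, was above both with DESeq2 (5.14, against 4.53 for CYP1A1 and 4.45 for AHRR) and with edgeR, limma-voom and a pseudocount of 0.1. The 1500 bases before each start site were searched for GCGTG on both strands (CACGC on the other strand), using start sites from the RefSeq promoter table, which held 7 of the 9 genes, and sequence from GRCh38. CYP1A1 had 10 matches, and 0.629% of 35116 promoters of the same length had as many. TIPARP had 6 before each of its first and next start sites (as many in 5.9%) and 2 before its last (48.9%), ARNT had 5 (10.6%), AHRR 4 before its first start site (18.5%) and 8 before its second (1.8%), NQO1 2 (48.9%), CYP1A2 1 (72.9%) and AHR 0. At least 1 match was found in 72.9% of all promoters. A match is a description of the letters, not a binding site, and 0 matches say only that these letters are not in the window. The stretch of the CYP1A1 promoter shown first lies at chr15:74726500-74726798 (minus strand), 1270 to 972 bases before the start, and holds 5 of the 10 matches. The next is the CYP1A1 sequence next to the start, chr15:74725529-74725608 (minus strand), with a match 57 bases before it, and the last is the same stretch of AHRR, chr5:321634-321713 (plus strand), with a match 30 bases before the start. Capitals mark GCGTG or CACGC.
CYP1A1 upstream: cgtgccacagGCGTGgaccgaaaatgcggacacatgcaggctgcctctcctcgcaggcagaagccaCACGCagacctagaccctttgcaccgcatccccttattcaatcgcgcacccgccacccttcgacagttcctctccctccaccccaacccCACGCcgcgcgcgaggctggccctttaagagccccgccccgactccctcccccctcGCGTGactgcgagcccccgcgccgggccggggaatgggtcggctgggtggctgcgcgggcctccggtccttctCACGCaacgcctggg
CYP1A1 at the start: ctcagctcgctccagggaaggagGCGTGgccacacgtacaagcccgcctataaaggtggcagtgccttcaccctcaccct
AHRR at the start: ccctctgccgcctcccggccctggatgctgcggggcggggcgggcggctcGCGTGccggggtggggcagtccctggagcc

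Of the 9 genes, 7 were higher with erlotinib at an adjusted p under 0.05 (limma, Benjamini-Hochberg over 14215 tested genes), 0 were lower, ARNT was neither and ARNT2 was too low to test. Much of the transcriptome differed between the groups, since 35.3% of the tested genes were higher by the same rule and 35.4% lower. In numbers these were 5012 and 5031 genes, against 6156 and 3955 when each library was scaled to its total count, which shifted the median of the tested genes by 0.18 in log2. Every erlotinib library was above every DMSO library in 8 of the 8 tested members, against 36.7% of the tested genes, and the reverse order was found in 0 members and in 36.9% of the tested genes. The median log2 fold change was 1.79 over the tested members and 0.02 over the tested genes. Log2 fold changes are on the log2(signal + 1) scale, which understates those of low genes. The size of the rise set the members apart into CYP1A1, AHRR and CYP1B1 with large rises, AHR, TIPARP and NQO1 with log2 fold changes under 1, and CYP1A2, which rests on few reads. Here 2 members reached a log2 fold change of 4, as did 0.647% of tested genes, and 4 reached 2, as did 5.85%. These figures include CYP1A2, which passed the filter through the erlotinib libraries alone. Without it, 6 of 7 tested members were higher, 7 of 7 were without overlap, 3 reached a log2 fold change of 2, and the median was 0.84. In bulk RNA, more cells with a transcript cannot be told apart from more transcript per cell.

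**Figure D1:**
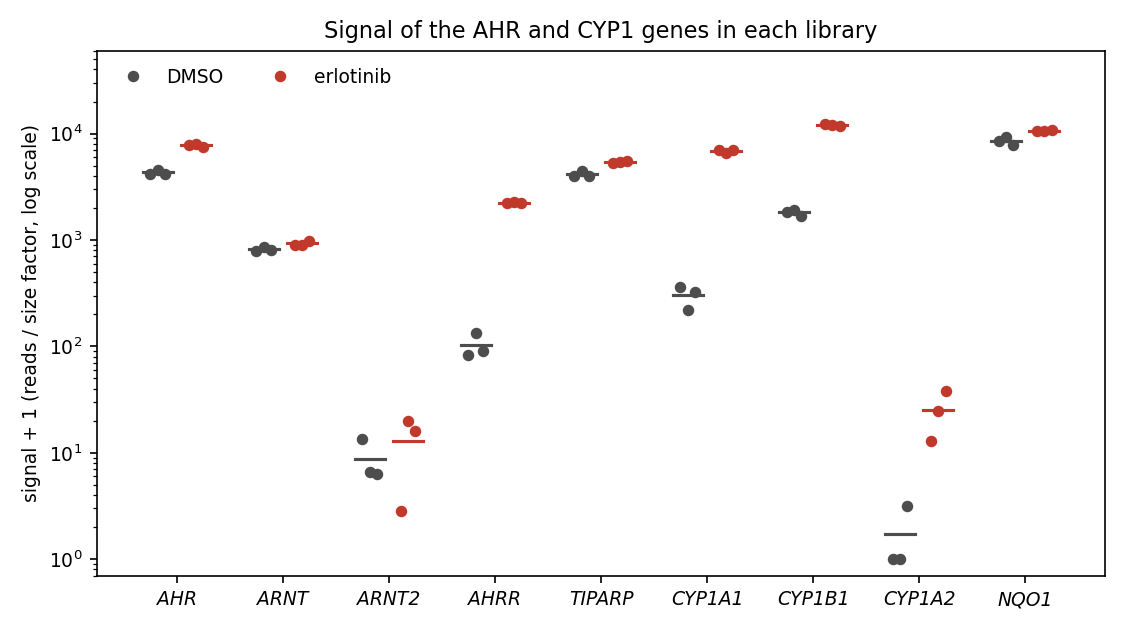
Signal + 1 (reads divided by the size factor, log axis) of the 9 genes in each library, with dots for libraries and bars for the mean of 3. CYP1A1 rose from 300.1 to 6861 and AHRR from 102 to 2239 with no overlap between the groups, while the ARNT2 values overlap.

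AHR itself, the receptor (Entrez 196, chr7:17298652-17346147, plus strand, 11 exons), was read at 4155, 4583 and 4212 with DMSO and at 7805, 7927 and 7432 with erlotinib. The 3 erlotinib libraries were all higher, and no value of one group reached the other. Its mean was 4317 ± 232 with DMSO and 7721 ± 258 with erlotinib (SD, n = 3 each), and the log2 fold change was 0.84 (SE 0.06, limma adjusted p 3.0e-10). A larger log2 fold change was found for 21.1% of the tested genes.

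ARNT, which binds DNA together with AHR (Entrez 405, chr1:150809713-150876599, minus strand, 22 exons), was read at 779, 856 and 803 with DMSO and at 896, 903 and 984 with erlotinib. The groups did not overlap, but they lay close together. Its mean was 813 ± 39.4 with DMSO and 928 ± 48.8 with erlotinib (SD, n = 3 each), with a log2 fold change of 0.19 (SE 0.09, limma adjusted p 0.060), just outside the threshold. Tested on the recovered reads, it passed the threshold with edgeR (log2 fold change 0.21, adjusted p 0.042, Benjamini-Hochberg) and not with DESeq2 (log2 fold change 0.20, adjusted p 0.055, Benjamini-Hochberg). CTSK, the gene beside ARNT, rose from 19.9 to 45.6 (limma adjusted p 0.0050). ARNT2, the second partner, best known in brain and kidney (Entrez 9915, chr15:80404382-80597933, plus strand), had 11, 6 and 5 reads with DMSO and 2, 19 and 16 with erlotinib. The groups overlapped, and no limma test was made at a mean signal under 10. ARNT2-AS3 and MIR5572, which overlap ARNT2 in the annotation, were at 0 in every library. The signal of ARNT fell relative to that of AHR, since the log2 ratio was -2.41 ± 0.02 with DMSO and -3.06 ± 0.12 with erlotinib (SD, n = 3 each). The exact permutation test gave a two-sided p of 0.1, the smallest that 3 against 3 libraries allow (0.125 adjusted over 5 ratios).

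Of the repressors, AHRR, which competes with AHR for ARNT (Entrez 57491, chr5:321714-438285, plus strand, 11 exons), was read at 82.8, 133 and 89.9 with DMSO and at 2247, 2263 and 2207 with erlotinib. Every erlotinib value was far above every DMSO value. The mean rose 22.0-fold, from 102 ± 27.0 to 2239 ± 28.7 (SD, n = 3 each), with a log2 fold change of 4.48 (SE 0.14, limma adjusted p 1.6e-16), and 53 tested genes had a larger one. The log2 ratio of AHRR to AHR was -5.42 ± 0.28 with DMSO and -1.79 ± 0.03 with erlotinib (exact permutation p 0.1, two-sided, the smallest possible). PDCD6, the gene beside AHRR, was at 2140 with DMSO and 2130 with erlotinib (limma adjusted p 0.98). EXOC3, on the other side, rose from 1118 to 2000 (log2 fold change 0.84, limma adjusted p 4.3e-09), and EXOC3-AS1 from 254 to 372 (log2 fold change 0.56, limma adjusted p 0.0014). A readthrough transcript of PDCD6 and AHRR covers all of AHRR in the annotation and was not analysed here.

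TIPARP, a mono-ADP-ribosyltransferase that represses AHR (Entrez 25976, chr3:156674590-156706770, plus strand, 6 exons), was read at 3969, 4446 and 4021 with DMSO and at 5252, 5436 and 5491 with erlotinib. The erlotinib libraries were higher without overlap, and the rise was modest, 1.30-fold (log2 fold change 0.38, SE 0.07, limma adjusted p 3.2e-05). A larger log2 fold change was found for 34.5% of the tested genes. TIPARP-AS1, an antisense gene that overlaps TIPARP by 1124 bases, rose from 9.19 to 35.2, far below TIPARP, passing the filter through the erlotinib libraries alone, and the counted strand was not given in the sources used here. The log2 ratio of TIPARP to AHR was -0.06 ± 0.01 with DMSO and -0.52 ± 0.07 with erlotinib (exact permutation p 0.1, two-sided).

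CYP1A1, the inducible enzyme that oxidizes polycyclic aromatic hydrocarbons (Entrez 1543, chr15:74719542-74725528, minus strand, 7 exons), was read at 363, 217 and 320.0 with DMSO and at 6992, 6608 and 6982 with erlotinib. Every erlotinib library was far above the highest DMSO library, and the erlotinib libraries were close to one another. The mean rose 22.9-fold, from 300.1 ± 74.9 to 6861 ± 219 (SD, n = 3 each), with a log2 fold change of 4.54 (SE 0.12, limma adjusted p 3.4e-17), and 47 of the tested genes had a larger one. DMSO library 2 was the lowest for CYP1A1 (217) and the highest for AHRR (133). CYP1B1, which also oxidizes estrogens (Entrez 1545, chr2:38067509-38076151, minus strand, 3 exons), was read at 1832, 1910 and 1695 with DMSO and at 12310, 12146 and 11757 with erlotinib. The rise was without overlap and 6.66-fold (1813 ± 109 to 12071 ± 284, log2 fold change 2.74, SE 0.07, limma adjusted p 6.1e-18), and 2.64% of the tested genes had a larger log2 fold change. The log2 ratio of CYP1A1 to CYP1B1 was -2.62 ± 0.44 with DMSO and -0.82 ± 0.06 with erlotinib (exact permutation p 0.1, two-sided). The gene RMDN2, which ends 371 bases from CYP1B1, rose from 48.4 to 132 (log2 fold change 1.45, limma adjusted p 1.6e-05), and CYP1B1-AS1, an antisense gene that GENCODE places over CYP1B1, had a mean signal of 8.43 with DMSO and 25.6 with erlotinib, and so also passed the filter through the erlotinib libraries alone.

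CYP1A2, the CYP1 enzyme of the liver (Entrez 1544, chr15:74748845-74756607, plus strand), had 0, 0 and 2 reads with DMSO and 13, 24 and 40 with erlotinib. All erlotinib libraries were above all DMSO libraries. The ratio of the summed reads, scaled to depth, was 35.2, with a 95% exact counting interval of 9.42 to 296 that covers counting error only. The log2 fold change was 3.98 (SE 0.84, limma adjusted p 0.00026), and it moved from 1.62 to 6.29 with the pseudocount. CYP1A2 passed the filter through the erlotinib libraries alone. CYP1A2 and CYP1A1 lie near each other on chromosome 15 and are close relatives. Their main transcripts share 0 exact runs of 50 bases, and whether CYP1A1 reads with mismatches were counted for CYP1A2 was not tested. CYP1A2 reads came to 0.355% of the 21711 CYP1A1 reads with erlotinib (95% exact interval 0.28 to 0.443%) and 0.234% of 853 with DMSO (0.0284 to 0.844%). These intervals cover counting error only. In single libraries the share was 0.172, 0.360 and 0.536% with erlotinib and 0, 0 and 0.669% with DMSO.

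NQO1, a quinone reductase that AHR and NRF2 are both known to induce (Entrez 1728, chr16:69709401-69726560, minus strand, 6 exons), was read at 8446, 9293 and 7837 with DMSO and at 10563, 10485 and 10869 with erlotinib. The erlotinib libraries were higher without overlap, by 1.25-fold (log2 fold change 0.32, SE 0.07, limma adjusted p 0.00024), and 36.7% of the tested genes had a larger log2 fold change. NFAT5, beside it, was at 3057 with DMSO and 3018 with erlotinib. The 1500 bases before its start held 1 match to TGACNNNGC, the core of the antioxidant response element through which NRF2 acts, 455 bases before the start, as do 42.7% of promoters. It is shown with 10 bases on either side, with the match in capitals, at chr16:69726997-69727025 (minus strand).
NQO1 upstream: gcagtcacagTGACTCAGCagaatctgag

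**Figure D2:**
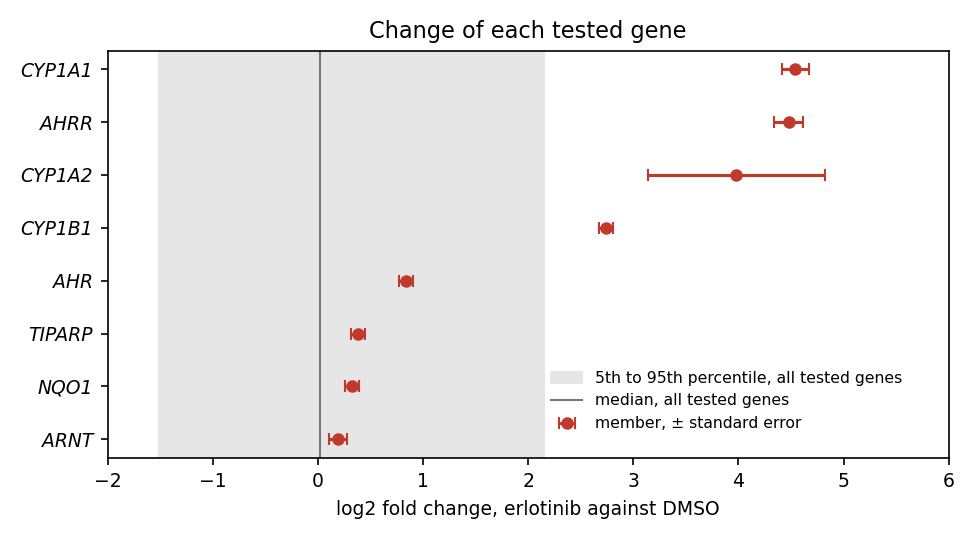
Log2 fold change (erlotinib over DMSO, on log2(signal + 1)) with its standard error for the 8 tested genes, the grey band spanning the 5th to 95th percentile of all tested genes (-1.51 to 2.15). CYP1A1, AHRR, CYP1A2 and CYP1B1 lie above the band, and AHR, TIPARP, NQO1 and ARNT lie inside it.

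Levels were compared between genes as signal per kilobase of exon. Reads were mapped without splitting across introns, and the genes differ in their exons (3 in CYP1B1, 22 in ARNT). Whether this affects the order was not tested. With DMSO, NQO1 was the highest at 2869, followed by TIPARP at 864, AHR at 536, CYP1B1 at 301, ARNT at 126, CYP1A1 at 89.3, AHRR at 10.7, ARNT2 at 1.01 and CYP1A2 at 0.228. No neighbours in that order overlapped in their libraries. With erlotinib, CYP1A1 moved from place 6 to place 2 (2041), CYP1B1 came next at 2004, and TIPARP and AHR followed at 1124 and 959. CYP1A1 and CYP1B1 overlapped in that group (1966 to 2080 and 1952 to 2044), but not when the longest transcript was used as the length (2534 to 2681 and 2253 to 2359). The other neighbours did not overlap, and AHRR at 236 passed ARNT at 144. NQO1 was again the highest at 3581.

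**Figure D3:**
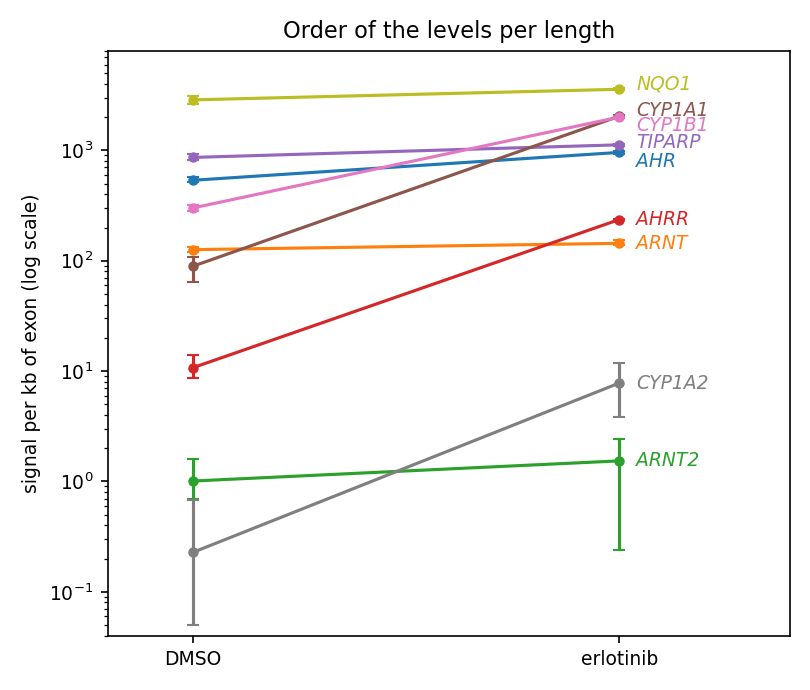
Mean signal per kilobase of exon (log axis) of the 9 genes with DMSO and with erlotinib, with bars from the lowest to the highest of 3 libraries. CYP1A1 rises from place 6 to place 2, next to CYP1B1, and the bar of CYP1A2 with DMSO is cut off below because its lowest library is at 0.

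The genes whose pattern over the 6 libraries was most like CYP1A1, CYP1B1, AHR and NQO1 were picked by the root mean square difference of log2(signal + 1), each gene centred on its DMSO mean, among 11061 other genes of mean signal at least 100. For CYP1A1 they were FAM83E (0.234), ALPG (0.296) and DEPP1 (0.309), while AHRR stood at 0.434. FAM83E, ALPG and DEPP1 had mean signals of 49.1, 29.9 and 19.3 with DMSO and reached the mean of 100 through the erlotinib libraries alone. For CYP1B1 they were SMIM14 (0.0341), LGSN (0.0383) and PANX2 (0.0598). For AHR they were YIPF3 (0.0267), TGFB2 (0.0343) and KLHL5 (0.039), and for NQO1 HIPK3 (0.0225), SEC31A (0.0225) and ZNF860 (0.023).

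Other genes of the pathway were followed by lists, whose counts stand beside 35.3% higher and 35.4% lower among all tested genes. The chaperones that hold AHR in the cytoplasm fell in 3 of 4 cases (list median -1.18). HSP90AA1, the inducible HSP90, went from 61879 ± 4454 to 14108 ± 12.2 (SD, n = 3 each, log2 fold change -2.13, limma adjusted p 1.7e-16), PTGES3, the cochaperone p23, from 13340 to 5161 and HSP90AB1 from 9652 to 4840. Of the 8 tested of 12 relatives in the bHLH-PAS family, 5 fell and 1 rose (median -0.62). The 8 and their median include SIM2 (8.12 to 15.6, neither), which passed the filter through the erlotinib libraries alone. The hypoxia factors HIF1A (9201 to 4455) and EPAS1 (5141 to 2359), and ARNTL2 (8897 to 3662), a relative of the clock, all fell. NPAS1 rose from 15.7 to 33.4 (limma adjusted p 0.029), a call that was lost with no filter, at an adjusted p under 0.01, and without DMSO library 3, erlotinib library 4 or erlotinib library 5. HIF3A had 0 reads. Of 14 coregulators, 7 rose, 3 fell and 4 did neither (median 0.22), while with total count scaling 11 rose and 2 fell. NCOA7 rose from 545 to 2659 and RELB, an NF-kappaB subunit that can pair with AHR, from 383 to 761, while RB1 fell from 1188 to 698.

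Other genes reported to be induced by AHR went in both directions, as did the tested genes as a whole (35.3% higher and 35.4% lower). Of 20 listed, 12 were tested, 6 were higher, 5 were lower and 1 was neither, and the median of their log2 fold changes was 0.13. EREG, an EGFR ligand, fell from 17920 to 6876, IGFBP1 from 380.2 to 170.4 and SLC7A5, an amino acid transporter, from 55511 to 28625. Among those higher, VAV3 went from 9.40 to 78.5, passing the filter through the erlotinib libraries alone, and NFE2L2, the gene of NRF2, from 4163 to 4947. The count of 6 and the median of 0.13 include VAV3. When at least 10 reads were required in every library, 5 were higher and 5 lower. UGT1A1 and GSTA2 had 0 reads. The kynurenine pathway, whose products include AHR ligands, had 8 of 12 genes tested, 4 higher and 1 lower (median 0.78). Those higher included KYNU (107 to 204), KYAT3 (203 to 314) and IDO1 (12.9 to 42.8, limma adjusted p 0.0037), while TDO2 and IDO2 had 0 reads. The 1 lower was KYAT1 (91.7 to 43.5, log2 fold change -1.08, limma adjusted p 0.00076). Among NRF2-driven genes other than NQO1, 7 of 12 tested were lower and 1 was higher (median -0.36). The count higher was 4 with total count scaling (6 lower) and 2 without DMSO library 2 (7 lower). GCLM (4971 to 2047), OSGIN1 (287 to 149) and SLC7A11 (1164 to 647) fell, and HMOX1, heme oxygenase, rose from 296 to 531.

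Of the 6 partners that pass electrons to P450 enzymes, 2 rose and 2 fell (median 0.00), against 35.3% and 35.4% of all tested genes. The count higher was 1 at an adjusted p under 0.01 and without DMSO library 2 or erlotinib library 5 or 6. With total count scaling it was 3. POR, the reductase that serves CYP1 enzymes, was at 1368 ± 133 with DMSO and 1410 ± 52.5 with erlotinib (SD, n = 3 each, log2 fold change 0.05, limma adjusted p 0.62). CYB5A rose from 676 to 1254, while CYB5B fell from 7114 to 2631 and FDX1, a mitochondrial ferredoxin, from 611 to 411. Among 31 other P450 genes of families 2 to 4, 11 were tested, 8 were higher and 0 lower (median 1.84). Of these CYP2S1, which AHR is also known to induce, went from 535 to 892 (log2 fold change 0.74, limma adjusted p 6.0e-07). The count higher was 3 when at least 10 reads were required in every library. The other 5 pass the filter through the erlotinib libraries alone, and the median of 1.84 includes them. The tested genes without these 5 had log2 fold changes of -0.28 (CYP2R1), 0.21 (CYP2J2), 0.28 (CYP2U1), 0.74 (CYP2S1), 1.84 (CYP2W1) and 2.20 (CYP4V2).

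**Figure D4:**
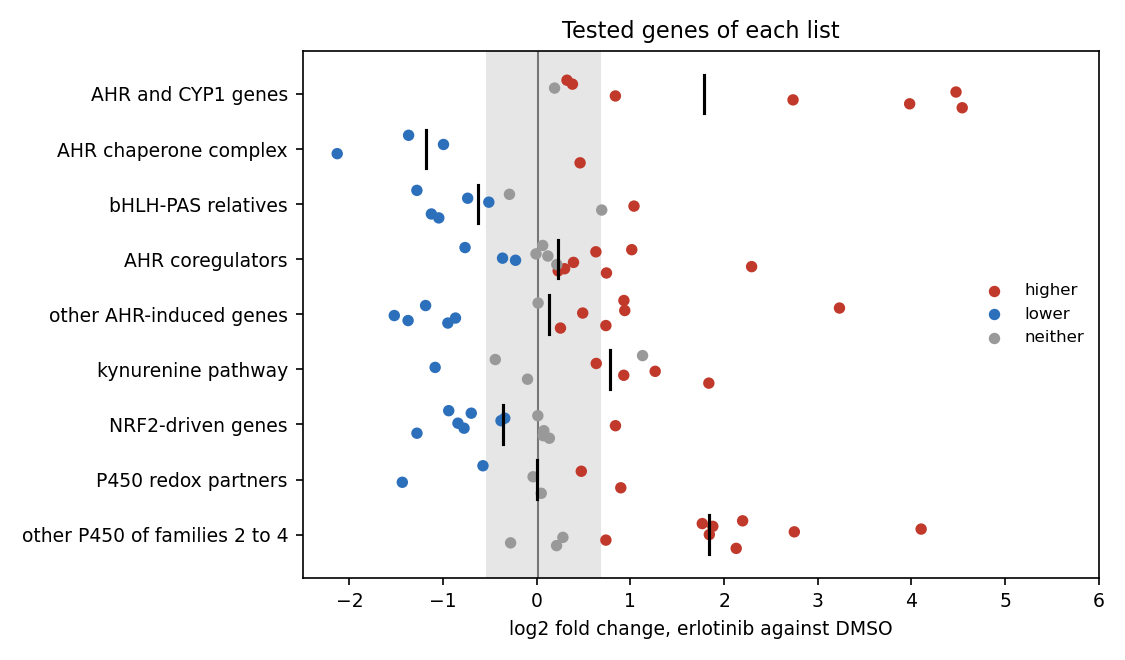
Log2 fold change of each tested gene in 9 lists, coloured by its call, with a black line at the list median, a grey band from the 25th to 75th percentile of all tested genes (-0.53 to 0.68) and a line at their median of 0.02. The other P450 genes (median 1.84) and the AHR and CYP1 genes (median 1.79) lie on the right. Both medians include genes that passed the filter through the erlotinib libraries alone, and without CYP1A2 the second is 0.84. The chaperones (median -1.18), the bHLH-PAS relatives (-0.62) and the NRF2-driven genes (-0.36) lie left of 0. The bHLH-PAS relatives include SIM2, and the other AHR-induced genes VAV3, which also passed the filter through the erlotinib libraries alone.

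The label of a lung adenocarcinoma line was checked against its markers. EPCAM was at 9852 with DMSO and 9485 with erlotinib, while NKX2-1, a lung lineage factor, rose from 3002 to 8644, NAPSA from 986 to 3733 and MUC1 from 419.7 to 2961. KRT7, KRT8, KRT18 and KRT19, keratins of simple epithelia, fell, so that of 9 tested of 10 markers 3 were higher and 4 lower. Beside this and the marker counts below, 35.3% of all tested genes were higher and 35.4% lower. Every erlotinib library was above every DMSO library in 36.7% of all tested genes. Because CYP1A2 is a liver gene, hepatocyte markers were read too. APOA1, APOA2 and HP were at 0 in every library and ALB had at most 4 reads. The summed signal of the 8 markers was 20.4, 26.0 and 15.0 with DMSO and 53.5, 61.4 and 76.8 with erlotinib. SERPINA1 was the most abundant with DMSO (10.6, and 18.3 with erlotinib, neither) and CYP2E1 with erlotinib (8.19 to 39.3). CYP2E1 was the 1 of 2 tested markers that was higher, and it passed the filter through the erlotinib libraries alone. Markers of secretory airway cells summed to 927, 870.2 and 1006 with DMSO and to 870.2, 819 and 1059 with erlotinib, nearly all from MUC5B. SCGB1A1 and SCGB3A2, which define these cells, were at 0, and 0 of the 2 tested markers were higher. Markers of ciliated cells summed to 439, 521 and 372 with DMSO and to 1956, 1771 and 2525 with erlotinib, a rise without overlap, and 4 of the 4 tested of 8 were higher. The most abundant was DNAH5, a dynein of cilia (369 to 1808), FOXJ1, the master factor of ciliated cells, rose from 1.38 to 149, and DNAI2 was at 0. Of the 4 tested, FOXJ1 and DNAI1 (3.78 to 20.4) passed the filter through the erlotinib libraries alone. Of those not tested, DNAH9 was at 1.43 with DMSO and 0 with erlotinib, TEKT2 at 2.05 and 0.615, and TEKT1 had at most 4 reads. Fibroblast markers, led by COL1A1, summed to 73.7, 75.2 and 109 with DMSO and to 260.2, 223 and 215 with erlotinib, and COL1A1 (77.7 to 216), the 1 tested of 6, was higher. COL1A2 and COL3A1 had at most 2 reads in any library, and in mean signal went from 0.997 to 0 and from 1.47 to 0.308, and DCN had at most 3 reads. Immune markers, nearly all from CD68, summed to 2777, 2795 and 3156 with DMSO and to 3238, 3537 and 3469 with erlotinib, with 1 of 1 tested higher and the B cell gene MS4A1 at 0. Endothelial markers, led by PECAM1 with DMSO and by VWF with erlotinib, summed to 34.0, 15.8 and 24.6 with DMSO and to 58.1, 46.5 and 48.7 with erlotinib, with 1 of 2 tested higher and CLDN5 at 0. The marker that was higher, VWF (3.94 to 27.4), passed the filter through the erlotinib libraries alone, and PECAM1 was at 15.7 with DMSO and 10.4 with erlotinib. The part of the ciliated, fibroblast, immune, endothelial and hepatocyte markers in the rise of the CYP1 genes and AHRR was not tested.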

How the data were processed

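The data are 6 RNA-seq libraries from HCC827 cells. According to the submitters' processing notes, the authors mapped reads to GRCh38 with Bowtie2 2.3.4, which does not split reads across introns, counted them with featureCounts 1.6.3, and used DESeq2 1.18.1. The deposited signal is reads divided by 1 size factor per library, and whole reads were recovered for 100% of the values (tolerance 0.01). The counted strand was not given in the sources used here. No column was left out.

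Signal was tested with limma on log2(signal + 1), letting the variance follow the mean. Tested genes, 14215 in number, had a mean of at least 10, and p-values were adjusted by Benjamini-Hochberg at 0.05, two-sided. Ratios between members were tested by exact permutation. Alternatives were DESeq2, edgeR with TMM factors, limma-voom, total count scaling, filters (none, or at least 10 reads in every library), pseudocounts, an adjusted p under 0.01, and each library left out. On the recovered reads edgeR called 5085 genes higher and 4941 lower, and DESeq2 4949 and 4934. The canonical transcript as length was added after seeing the data. Exon lengths came from GENCODE release 44, positions and neighbours from the RefSeq table of GRCh38, promoter starts from the RefSeq promoter table. Limma was tested on simulated data.

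The members and lists were chosen with earlier results of these data known. Named genes were the members, in each list the 3 largest changes among called genes of mean signal at least 100 and the genes at 0, the neighbours within 10 kb, and the 3 most alike genes. Others, such as VAV3, NFE2L2, HMOX1, NPAS1, SIM2, IDO1, KYAT1, POR, CYP1B1-AS1 and the cell markers' leading genes, were named after their values were seen. Some single genes of the lists are not reported here. Tests ran in limma 3.58.1, edgeR 4.0.16 and DESeq2 1.42.0 under R 4.3.3, and Python 3.11.15 with matplotlib 3.10.9 drew the figures.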

Additional observations from a re-analysis of the deposited data

How the results depend on the processing

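Of the 8 tested members, 6 to 8 were higher over 15 alternatives and 0 were lower; 6 was the count when 10 reads were required in every library, since CYP1A2 is then untested. The log2 fold change ran from 4.33 to 4.72 for CYP1A1, 4.34 to 4.68 for AHRR, 2.69 to 2.92 for CYP1B1, 0.81 to 1.02 for AHR, 0.35 to 0.56 for TIPARP and 0.26 to 0.50 for NQO1. ARNT passed the threshold with edgeR (0.21), limma-voom (0.20) and total count scaling (0.37), and ran from 0.15 to 0.23 with 1 library left out, passing without DMSO library 2 alone (adjusted p 0.015, limma). Total count scaling moved the median of all genes by 0.18 in log2. The log2 ratio of ARNT2 to ARNT turned negative at a pseudocount of 0 (-0.030) and ran from -0.50 to 0.89 with 1 library left out (negative without DMSO library 2 or 3 or erlotinib library 5 or 6), and the cause was not tested. The count higher changed for bHLH-PAS relatives to 0 (no filter, adjusted p under 0.01) and 0 to 1 (1 library left out, 0 without DMSO library 3 or erlotinib library 4 or 5), coregulators to 11 and NRF2-driven genes to 4 (total count), the latter running from 1 to 2 with 1 library left out (2 without DMSO library 2), P450 partners to 1 (adjusted p under 0.01) and 1 to 2 (1 library left out, 1 without DMSO library 2 or erlotinib library 5 or 6), and other P450 genes to 3 (10 reads in every library). The other P450 genes lower ran from 0 to 1 with 1 library left out (1 without DMSO library 2). Higher counts of all genes ran from 4323 to 6156 and lower ones from 3955 to 5096. No paired analysis was possible because the erlotinib columns carry numbers that match no sample title. At 0 to 2 reads per library with DMSO and 13 to 40 with erlotinib, CYP1A2 is limited by depth.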

Other observations

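Among P450 genes under the filter, CYP2F1, a lung enzyme, had 0 reads in all 3 DMSO libraries and a signal of 8.31, 8.91 and 11.2 with erlotinib, and CYP4F12 went from 0.619 to 16.8 in mean signal. CYP2B6, which the receptor CAR is known to induce in liver, had a mean signal of 3.16 with DMSO and 16.7 with erlotinib. CYP3A4, a main enzyme of erlotinib metabolism, had at most 5 reads in any library, and CYP2D6, CYP3A7, CYP4A11, CYP4F2, CYP4F8 and CYP4F22 had 0 in all 6.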
